A study of Homo sapiens with 4 samples.

Results

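The ERK pathway feedback genes are transcripts that rise when the kinase ERK is active and whose products mostly hold the same pathway back. The 10 named members are DUSP4, DUSP5, DUSP6, SPRY2, SPRY4, SPRED1, SPRED2, ETV4, ETV5 and PHLDA1. A member was read from probe sets annotated with its symbol alone, and where a gene has several such probe sets the one with the highest mean log2 intensity was used. All 10 were found, each with 1 probe set, among 18377 genes measured that way. They were measured in MOLM-14, an established human acute myeloid leukemia line, on 4 Affymetrix whole-transcript arrays. DZNep (3-deazaneplanocin A), an inhibitor of S-adenosylhomocysteine hydrolase that is widely used to lower the histone methyltransferase EZH2, was given at 2 µM to 2 samples, and DMSO, its solvent, to 2 samples. Both groups were the same cells in RPMI medium with fetal bovine serum and were compared at 24 h. The samples are labelled biological replicates, with no word on separate cultures, so a p-value speaks only to the variation among these 4 samples, part or all of which may be technical.

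Growth factor receptors, among them FLT3 in myeloid progenitors and leukemic cells, switch on RAS, which drives the kinases RAF, MEK and ERK in turn. Active ERK induces a set of genes within hours, and several of their products feed back. Phosphatases of the DUSP family remove phosphate from ERK, Sprouty and Spred proteins act near the receptor and RAS, and the ETS factors ETV4 and ETV5 carry the signal to other promoters. Because these transcripts follow ERK activity in many cell types, their levels are often read as a measure of pathway output. The comparison asks whether they differ between DZNep and DMSO.

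The 10 feedback genes did not move as a block. A log2 difference is the DZNep mean minus the DMSO mean of log2 intensity, the log2 of the fold change. PHLDA1 rose 1.51-fold with DZNep, ETV5 fell 1.45-fold, and 8 members did not pass the test (limma, Benjamini-Hochberg adjusted over all 18377 genes, threshold 0.05). Of all genes tested, 10.3% passed, 3.62% higher and 6.68% lower, and 2 of 10 members is a small count to set against that share. The median log2 difference of the members was 0.06, beside 0.02 over all genes. It was 0.01 without DZNep replicate 2, beside 0.03 over all genes, and 0.09 without DMSO replicate 2, beside 0.04. For 7 members the arrays separated fully by group, beside 49.7% of all genes. The DZNep arrays were the higher ones for 4 members and the lower ones for 3, beside 25.9% and 23.9% of all genes, and the arrays of the remaining 3 overlapped. With 2 arrays a group the smallest p that exact permutation allows for one gene is 0.333, so each call rests on the spread that limma pools across genes.

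The stretches just before the transcription starts of PHLDA1 and SPRY2 are shown because they hold CCGGAA, a form of the site bound by ETS factors. ETV4 and ETV5 are of that family. A further reason is that the log2 differences of PHLDA1 and SPRY2 have opposite signs. Each is 250 bases of RefSeq sequence on GRCh38.p14, on the minus strand, read 5′ to 3′ toward the start. CCGGAA or its reverse complement is in capitals. The shorter ETS core GGAA was not searched for, and it or its reverse complement also stands in lower case in both stretches.
PHLDA1, chr12:76031777-76032026, minus strand: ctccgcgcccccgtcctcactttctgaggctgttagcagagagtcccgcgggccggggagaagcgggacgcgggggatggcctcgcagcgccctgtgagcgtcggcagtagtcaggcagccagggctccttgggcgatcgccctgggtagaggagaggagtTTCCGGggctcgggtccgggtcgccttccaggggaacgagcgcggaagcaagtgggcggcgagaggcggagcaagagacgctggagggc
SPRY2, chr13:80341127-80341376, minus strand: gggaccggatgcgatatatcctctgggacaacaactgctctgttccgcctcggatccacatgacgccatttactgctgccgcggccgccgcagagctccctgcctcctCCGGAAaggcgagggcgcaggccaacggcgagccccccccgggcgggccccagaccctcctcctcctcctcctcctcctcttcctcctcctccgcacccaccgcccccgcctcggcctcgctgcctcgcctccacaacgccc
In PHLDA1 the capitals begin 89 bases before the start and are on the opposite strand to the gene, and in SPRY2 they begin 142 bases before it and are on the strand of the gene. RefSeq windows were matched for 6 members, 9 windows in all because some genes have several starts, and only these 2 windows held CCGGAA on either strand, beside 14.5% of the 35116 windows of all genes. The AP-1 letters TGANTCA, the cyclic AMP response element TGACGTCA and the CArG box bound by serum response factor were in 0 of the 9 windows, against 6.57%, 1.65% and 1.16% of all windows. A match of letters is a description of the sequence and not evidence of binding, and 250 bases leave out any more distant element.

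The ETS factors ETV4 and ETV5 belong to the PEA3 subfamily and turn ERK signals into transcription. ETV5 had a log2 intensity of 8.03 and 8.18 on the DZNep arrays, against 8.79 and 8.50 on the DMSO arrays. Both DZNep values lay below both DMSO values, with 0.32 between the nearest arrays, while the DMSO arrays stood 0.29 apart. Its means were 8.10 ± 0.11 with DZNep and 8.64 ± 0.21 with DMSO (SD, n = 2 arrays each), a log2 difference of −0.54 (limma, SE 0.12, adjusted p = 0.0214). The call ended without DMSO replicate 1 (−0.39, limma adjusted p = 0.0721), without DZNep replicate 1 (−0.46, adjusted p = 0.0887), and when 16 was subtracted from every intensity (−0.57, adjusted p = 0.0528).

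ETV4 was also lower in the DZNep samples and missed the threshold. It had 7.03 and 7.33 on the DZNep arrays, against 7.58 and 7.51 on the DMSO arrays, in log2 intensity. The groups were separate by 0.18, less than the 0.30 between the DZNep arrays. The log2 difference was −0.36, with a 95% interval for that gene alone of −0.62 to −0.10 (limma, adjusted p = 0.0902). The log2 difference of ETV4 was −0.51 without DZNep replicate 2 and −0.21 without DZNep replicate 1.

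PHLDA1, a small protein with a pleckstrin homology-like domain that growth factors and cell stress induce, was the member with the largest change. Its log2 intensity was 8.33 and 8.57 on the DZNep arrays, against 7.80 and 7.91 on the DMSO arrays. Every DZNep value was above every DMSO value, with 0.42 between the nearest arrays and 0.23 between the DZNep arrays. The means were 8.45 ± 0.16 with DZNep and 7.85 ± 0.08 with DMSO (SD, n = 2 arrays each), a log2 difference of 0.59 (limma, SE 0.11, adjusted p = 0.0094). Without DZNep replicate 2 the value was 0.48 and the call ended (limma adjusted p = 0.0708). By size of change, whatever its direction, PHLDA1 ranked 762 and ETV5 ranked 942 of the 18377 genes.

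**Figure D1:**
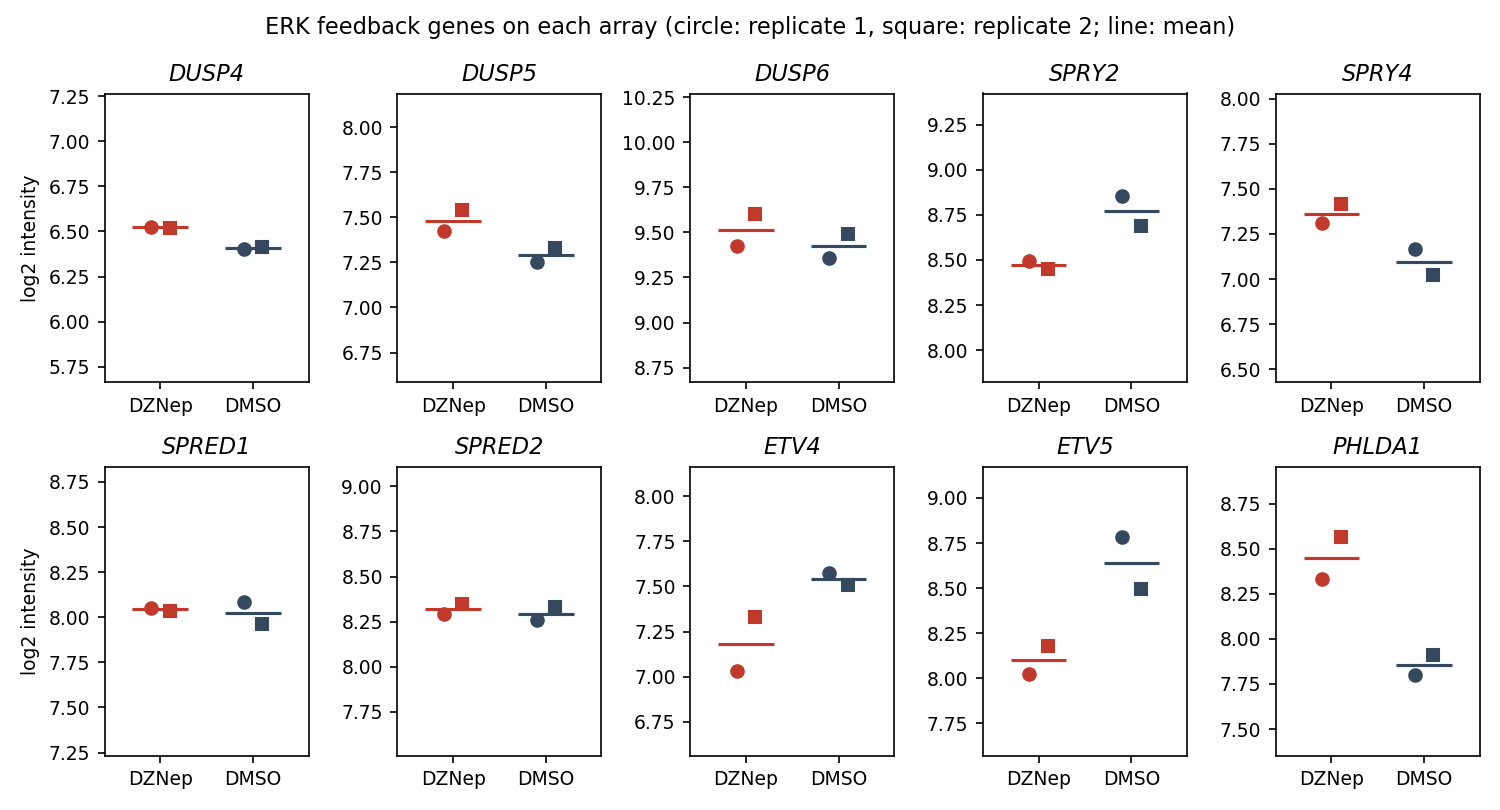
Log2 intensity (vertical axis, the same span in every panel) of the 10 feedback genes on each array, with DZNep in red and DMSO in dark blue, circles for replicate 1, squares for replicate 2 and lines for the mean of 2 arrays. PHLDA1 is higher and ETV5 lower on both DZNep arrays than on both DMSO arrays, while the values of SPRED1, SPRED2 and DUSP6 overlap between groups.

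Sprouty proteins are membrane-associated inhibitors that growth factors induce and that hold back RAS activation below receptor kinases. SPRY2 had a log2 intensity of 8.49 and 8.45 on the DZNep arrays, against 8.86 and 8.69 on the DMSO arrays. SPRY4 had 7.31 and 7.41 on the DZNep arrays, against 7.17 and 7.02 on the DMSO arrays. The arrays of both genes separated by group, SPRY2 downward and SPRY4 upward with DZNep. Neither passed the test, with a log2 difference of −0.30 for SPRY2 (95% interval −0.53 to −0.08, limma adjusted p = 0.0986) and 0.27 for SPRY4 (0.04 to 0.50, adjusted p = 0.146). SPRY2 passed without DMSO replicate 2, at −0.39 (limma adjusted p = 0.041), and once the dimmest 50% of genes were left out (adjusted p = 0.0424). The opposite signs of the 2 Sprouty genes held under every alternative run for both, and the difference between them was not tested.

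Spred proteins share the Sprouty domain and bring neurofibromin, a RAS GTPase-activating protein, to the membrane. SPRED1 had a log2 intensity of 8.05 and 8.04 on the DZNep arrays, against 8.08 and 7.96 on the DMSO arrays. SPRED2 had 8.29 and 8.35 on the DZNep arrays, against 8.26 and 8.33 on the DMSO arrays. For both genes the DZNep values fell within or across the DMSO values. The log2 differences were 0.02 for SPRED1 (95% interval −0.20 to 0.24, limma adjusted p = 0.942) and 0.03 for SPRED2 (−0.19 to 0.24, adjusted p = 0.927), and each changed sign under median centring. These intervals leave room for a rise of up to 0.24 or a value as low as −0.20.

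The DUSP members are dual-specificity phosphatases that inactivate MAP kinases: DUSP6 acts on ERK in the cytoplasm, DUSP5 on ERK in the nucleus, and DUSP4 in the nucleus on ERK and other MAP kinases. DUSP6 had a log2 intensity of 9.42 and 9.60 on the DZNep arrays, against 9.36 and 9.49 on the DMSO arrays, and the groups overlapped. DUSP5 had 7.42 and 7.54 on the DZNep arrays, against 7.25 and 7.33 on the DMSO arrays. DUSP4 had 6.53 and 6.52 on the DZNep arrays, against 6.40 and 6.41 on the DMSO arrays. The last 2 genes were higher on every DZNep array, by 0.09 and 0.11 between the nearest arrays, and no DUSP member passed. The log2 differences were 0.09 for DUSP6 (95% interval −0.15 to 0.33, limma adjusted p = 0.723), 0.19 for DUSP5 (−0.03 to 0.41, adjusted p = 0.314) and 0.12 for DUSP4 (−0.09 to 0.32, adjusted p = 0.553). DUSP4 repeated most closely of all members, with 0.01 between the arrays of either group. The DUSP6 value was −0.00 without DZNep replicate 2 and 0.18 without DZNep replicate 1.

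**Figure D2:**
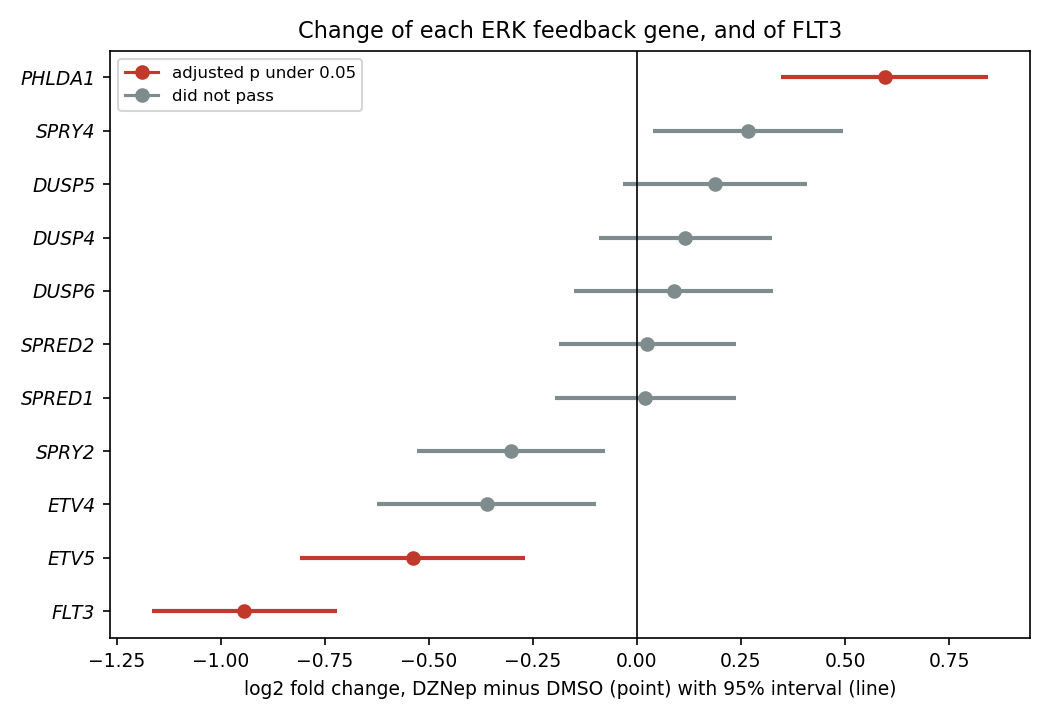
Log2 difference of DZNep minus DMSO for the 10 feedback genes and FLT3 (points) with 95% intervals for each gene alone (lines), from limma over 4 arrays, in red where the adjusted p was under 0.05. PHLDA1 lies at 0.59 and ETV5 at −0.54, the other 8 members lie between −0.36 and 0.27, and FLT3 lies at −0.94.

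FLT3, the receptor kinase that signals to ERK in this lineage, had a log2 intensity of 10.93 and 10.91 on the DZNep arrays, against 11.94 and 11.79 on the DMSO arrays. All DZNep values were lower, and the log2 difference was −0.94 (limma, SE 0.10, adjusted p = 0.000535). Set beside it, the feedback members had log2 differences from −0.54 to 0.59, with 7 above 0 and 3 below. The arrays measure transcripts only, and phosphorylation of ERK was not analysed here.

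Paralogs of the members, 13 genes, had a median log2 difference of 0.17, with none higher and 1 lower by the test, a count near the 6.68% of all genes that fell. DUSP16, a phosphatase for JNK and p38, had a log2 intensity of 7.20 and 7.34 on the DZNep arrays, against 7.91 and 7.59 on the DMSO arrays. It was lower on both DZNep arrays, at −0.48 (limma adjusted p = 0.0383). The call ended without DZNep replicate 1 (−0.41, limma adjusted p = 0.159), without DMSO replicate 1 (−0.32, adjusted p = 0.113) and with 16 subtracted (−0.53, adjusted p = 0.0756). In 7 of the 13 the DZNep arrays lay above the DMSO arrays and in 1 below them, beside 25.9% and 23.9% of all genes.

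Among 23 measured genes of a list of 25 others that ERK induces, 2 rose and 1 fell, and the median was 0.09. The count of 3 in 23 is near the 10.3% of all genes that passed. IER3, an immediate early gene tied to survival signalling, had a log2 intensity of 8.17 and 8.15 on the DZNep arrays, against 7.43 and 7.54 on the DMSO arrays. It was clearly separate between groups and rose by 0.67 on the log2 scale (limma, SE 0.10, adjusted p = 0.0026). With each array left out in turn the rise was 0.62 to 0.73. FOS, an AP-1 subunit, had 9.12 and 9.19 on the DZNep arrays, against 8.79 and 8.81 on the DMSO arrays, a log2 difference of 0.35 (limma adjusted p = 0.0446) whose call ended when any 1 array was left out (adjusted p of 0.0528 to 0.411) under median centring (0.0802), with 16 subtracted (0.0912) and with the replicate block (0.062). HBEGF, a ligand of the epidermal growth factor receptor, had 8.76 and 8.92 on the DZNep arrays, against 9.32 and 9.16 on the DMSO arrays. It was lower throughout, at −0.40 (limma adjusted p = 0.0453), and its call ended without either DZNep array or DMSO replicate 1 (adjusted p of 0.0708 to 0.403) and with 16 subtracted (0.0938).

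Of 7 kinases that ERK phosphorylates, 1 fell and none rose, beside 6.68% and 3.62% of all genes, with a median of 0.07. RPS6KA2, a ribosomal S6 kinase of the RSK family, had a log2 intensity of 7.33 and 7.53 on the DZNep arrays, against 8.19 and 7.78 on the DMSO arrays. The DMSO arrays stood 0.41 apart, and the log2 difference of −0.56 (limma adjusted p = 0.0357) lost its call without DMSO replicate 1 (−0.35, adjusted p = 0.117), without DZNep replicate 1 (−0.46, adjusted p = 0.091) and with 16 subtracted (−0.61, adjusted p = 0.075).

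In the core cascade, from receptor adaptors through RAS, RAF and MEK to ERK, 19 of 25 listed genes were measured. Of these limma called 0, beside 10.3% of all genes, and 19 is a small number to set against that share. At an unadjusted limma p under 0.05 there were 2, beside 4076 of all 18377 genes. The median was −0.04, beside 0.02 over all genes. The largest changes were in GAB2, an adaptor that recruits signalling enzymes, at −0.39 (limma adjusted p = 0.262), and MRAS, a RAS-family GTPase, at 0.27 (adjusted p = 0.119). GAB2 had a log2 intensity of 8.58 and 8.70 on the DZNep arrays, against 9.37 and 8.69 on the DMSO arrays, so DMSO replicate 1 stood apart from the other 3. MAP2K1, which encodes MEK1, had 9.48 and 9.55 on the DZNep arrays, against 9.71 and 9.62 on the DMSO arrays, a log2 difference of −0.15 (limma adjusted p = 0.441), and was picked here after its value was seen.

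Among 16 measured genes of 20 listed RAS exchange factors, RAS GTPase-activating proteins and other modulators, 1 rose and none fell, beside 3.62% and 6.68% of all genes, with a median of 0.09. RASGRP3, an exchange factor that loads RAS with GTP, had a log2 intensity of 6.51 and 6.44 on the DZNep arrays, against 6.06 and 5.60 on the DMSO arrays. Its log2 difference was 0.65 (limma, SE 0.14, adjusted p = 0.0196), 0.88 without DMSO replicate 1 and 0.42 without DMSO replicate 2, and the call ended under cyclic loess normalization (0.61, adjusted p = 0.0578). RASGRP3 is among the dimmest 25% of genes. In 7 of the 16 the DZNep arrays lay above the DMSO arrays and in 0 below them, beside 25.9% and 23.9% of all genes.

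**Figure D3:**
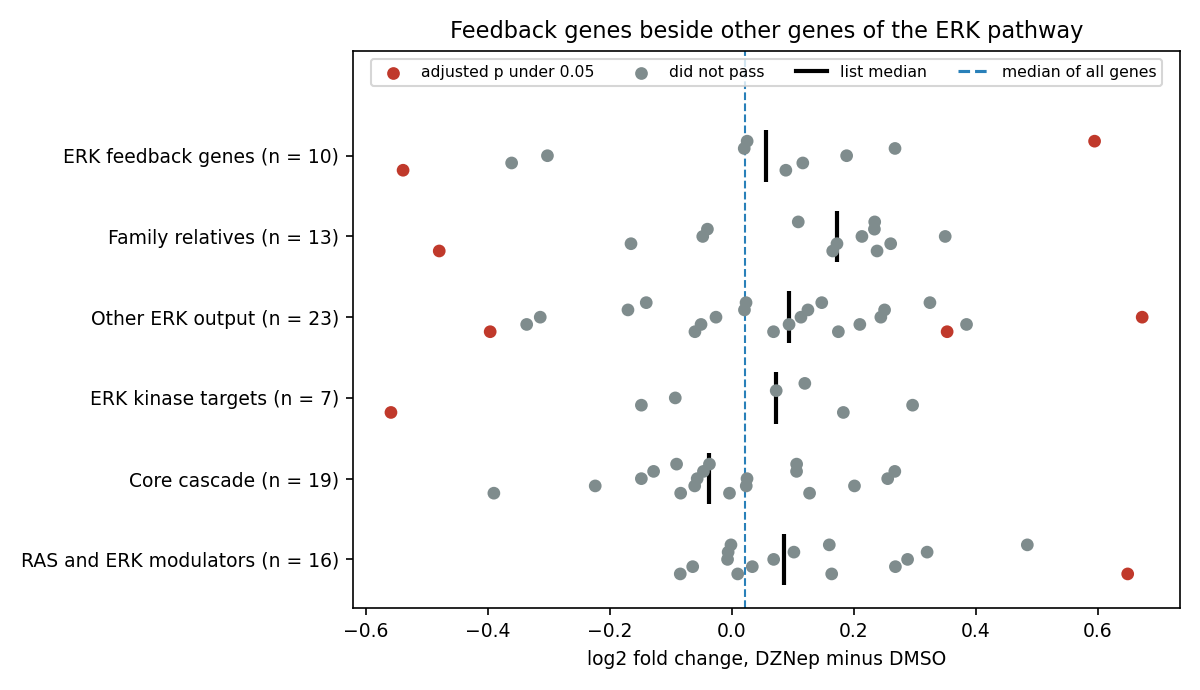
Log2 difference of DZNep minus DMSO (horizontal axis) for each measured gene of the feedback set and of 5 other lists of the ERK pathway, with points spread vertically only to keep them apart, red where the adjusted p was under 0.05, black bars for list medians and a dashed line for the median of all genes at 0.02. Each list straddles 0, and the list medians run from −0.04 to 0.17.

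Marker genes were read to check the label of the cells. LYZ and the myeloid factor SPI1 had mean log2 intensities of 12.77 and 9.27 with DZNep and 12.24 and 9.21 with DMSO. The T cell gene CD3E had 5.90 with DZNep and 5.95 with DMSO, and the B cell gene MS4A1 had 5.48 with DZNep and 5.30 with DMSO. Other markers that blood cells should lack were not dim: the keratin KRT18 had 8.85 with DZNep and 8.93 with DMSO, and the collagen COL1A1 had 7.90 with DZNep and 7.79 with DMSO. The myeloid markers MPO, CSF1R and CD14 had 8.55, 7.98 and 7.04 with DZNep and 8.70, 7.52 and 6.71 with DMSO. Probe intensities of different genes give no order of their levels. The 7 measured markers of T cells, B cells, epithelium and fibroblasts had limma adjusted p of 0.321 to 0.993 between groups. The list for monocytic leukemia cells holds the monocyte genes LYZ, CSF1R and CD14 beside broader myeloid and progenitor genes. Of its 7 measured markers, LYZ rose by 0.53 on the log2 scale (limma adjusted p = 0.0114), CSF1R by 0.47 (adjusted p = 0.0128), and FLT3 fell. The others did not pass, with log2 differences of 0.33 for CD14, 0.06 for SPI1, −0.15 for MPO and −0.27 for MEIS1. The summed intensity of the 7 was 11274 and 10766 on the DZNep arrays, against 10619 and 10835 on the DMSO arrays. LYZ and FLT3, the brightest of them, changed in opposite directions, so the sum does not show how the single markers moved. The part of these markers in the feedback values was not tested. In bulk RNA fewer cells of a kind and less transcript per cell cannot be told apart. Over all probe sets the median log2 intensity was 7.05 to 7.07 on the DZNep arrays and 6.99 to 7.07 on the DMSO arrays.

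The 4 arrays limit what can be said of any single member. The call of PHLDA1 ended without DZNep replicate 2, and that of ETV5 without DZNep replicate 1 or DMSO replicate 1. Each such fit leaves 1 array in a group. Without either DZNep array the SE was 0.17 for every feedback gene, against 0.11 for PHLDA1 and 0.12 for ETV5 with all 4 arrays. A call lost there can come from the larger SE and not from the array left out. FOS lost its call without DZNep replicate 1 although its log2 difference was larger there, at 0.39 against 0.35. In the values with each array left out in turn, PHLDA1 ran from 0.48 to 0.71 and ETV5 from −0.68 to −0.39, so their directions held. SPRY4 ran from 0.20 to 0.34 and SPRY2 from −0.39 to −0.22, also without a change of sign.

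**Figure D4:**
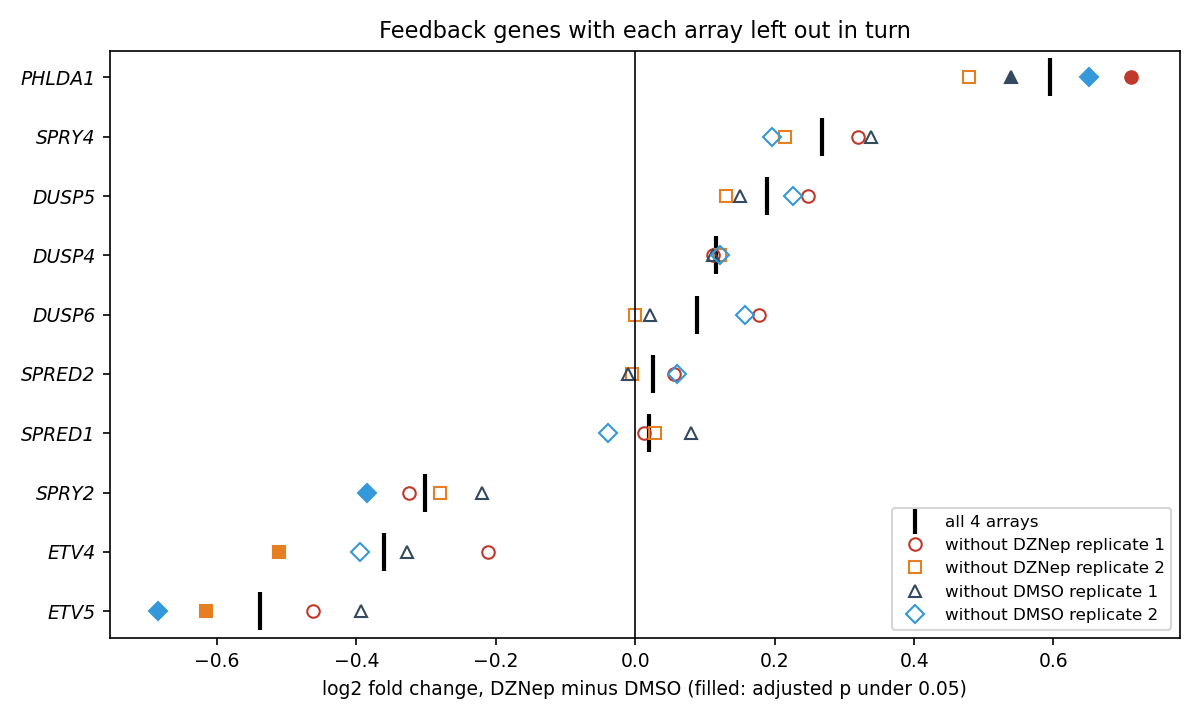
Log2 difference of each feedback gene with all 4 arrays (black bars) and with each array left out in turn (symbols, filled where the adjusted p was under 0.05). PHLDA1 stays between 0.48 and 0.71 and ETV5 between −0.68 and −0.39, while SPRED1, SPRED2 and DUSP6 reach or cross 0.

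By the distance between log2 profiles, each centred on its own mean over the 4 arrays, the genes most like PHLDA1 were NPFF at 0.07, OR9A4 at 0.07 and BMP2 at 0.07. With 4 points from shared arrays and 18377 genes to choose from, profiles this close are a description of these arrays only.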

How the data were processed

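Total RNA of 2 DZNep and 2 DMSO samples was hybridised, after whole-transcript labelling with Affymetrix reagents per the labels' protocols. The authors deposited 1 linear intensity per probe set and array, made with RMA per the submitters' processing notes, whose version and settings the sources used here do not state. The lowest intensity was 18.1 to 18.5 on each array. If a constant was added, folds of dim genes are compressed, which subtracting 16 addresses. No column was left unused. Log2 was taken with no pseudocount, filter or further normalization.

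Symbols came from the platform annotation: of 28869 probe sets 19310 have 1 symbol, 1752 several and 7807 none listed. The test was limma's, version 3.58.1, under R 4.3.3 (a linear model by group and eBayes without trend, two-sided, 2 residual and 7.18 prior degrees of freedom), adjusted over 18377 genes. The script was tested on simulated data in which 200 of 18377 genes were changed, a smaller share than the 10.3% called here. It called 32.5% of simulated log2 changes of 0.5, 98.7% of those of 1 and 100% of those of 2, and 5.13% of its calls were false. A change near 0.5 was thus often missed there, so a gene not called may still have changed by that much. How often such a change is missed in these data was not estimated, because the adjustment depends on the share of genes that change. Intervals of 95% are for a gene alone. The members, the 5 pathway lists and the alternatives were chosen with earlier results of these data known. Named were all members, FLT3, list genes past the threshold, the 2 largest changes of a list with none, and the 3 nearest profiles. MAP2K1, PLAUR, JUNB, RASAL3, ETV1, ATF3 and EGR1 were named after their values were seen.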

Additional observations from a re-analysis of the deposited data

How the results depend on the processing

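The count of feedback genes past the threshold varied with the arrays and settings used. The count higher was 1, and 0 to 1 with one array left out. It was 0 against a 1.5-fold change (treat). The count lower was 1, and 0 to 2 with one array left out. It was 2 without the dimmest 50% of genes, where SPRY2 joined ETV5, and 0 with 16 subtracted or with treat. The fall of ETV5, 1.45-fold, is under the 1.5-fold that treat requires, so treat could not call it. The members' median stayed above 0 in every alternative run, from 0.01 to 0.09. The all-gene median moved too, and without DZNep replicate 2 it was 0.03, above the members' 0.01. DUSP4, DUSP5, SPRY4 and ETV4 lie in the dimmest 50% and had no value there. The deposited values carry no background measure, so signal over background is unknown for each member.

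With one array left out, the calls were 0 to 1 of the core cascade, 1 to 2 of the modulators, 0 to 2 of the paralogs, 1 to 3 of the other ERK-induced genes and 0 to 1 of the ERK kinase targets. With 16 subtracted, 0 paralogs, 1 ERK-induced gene and 0 kinase targets were called, and treat called 0 of each list. No core cascade, paralog or kinase target gene changed by 1.5-fold, so treat could call none of them. The modulators counted 0 of 13 without the dimmest 25% and 2 of 11 without the dimmest 50%. They counted 4 of 16 under quantile normalization or an intensity trend, robust or not. The other ERK-induced genes counted 5 of 22 without the dimmest 25% and 5 of 17 without the dimmest 50%. They counted 5 of 23 under quantile or cyclic loess normalization, and 6 of 23 with an intensity trend, robust or not. The kinase targets counted 2 of 7 without the dimmest 50%. All-gene calls, higher and lower, were 739 and 1404 of 13782 without the dimmest 25%, and 793 and 1475 of 9188 without the dimmest 50%. They were 912 and 1332 of 18377 under quantile normalization, 749 and 1322 under cyclic loess, and 946 and 1670 with an intensity trend. The list counts were not tested against these all-gene counts. RASGRP3, the 1 modulator called in the main test, was itself left out with the dimmest 25%, so it was not tested there. The cause of the other shifts was not tested, except that fewer genes are tested without dim ones.

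Samples of equal replicate number did not vary alike: their deviations from the group means correlated at −0.22. Between crossed numbers the correlation was 0.22, which with 2 arrays a group is the same value with its sign reversed. What arrays of crossed numbers share was not tested. With the replicate block, the core cascade counted 1 and the modulators 2, and feedback calls were again PHLDA1 and ETV5. The SE with that block was 0.13 for every feedback gene and for FOS. Calls there thus follow the size of the log2 difference and not each gene's own spread. The ERK-induced genes again counted 3, with PLAUR called and FOS no longer called. With the numbers crossed, an alternative chosen after seeing the data, 1 feedback gene was higher and 2 were lower, and 3 modulators, 2 paralogs and 6 ERK-induced genes were called. Over all genes, 665 higher and 1227 lower calls went to 754 and 1353 with the block and 1034 and 1690 with the numbers crossed, to 336 and 845 without DZNep replicate 2, to 439 and 734 without DZNep replicate 1, and to 37 and 73 with treat. With 16 subtracted they went to 444 and 830.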

Other observations

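Several pathway genes just missed the threshold with all 4 arrays and passed under more than 1 alternative. These genes, and those of the next paragraph, were chosen after their values were seen. PLAUR, the urokinase receptor and a known ERK-induced gene, had a log2 intensity of 9.20 and 9.41 on the DZNep arrays, against 8.86 and 8.98 on the DMSO arrays, a log2 difference of 0.38 (limma adjusted p = 0.0529). JUNB, an AP-1 subunit, had 9.06 and 9.09 on the DZNep arrays, against 8.80 and 8.70 on the DMSO arrays, at 0.32 (limma adjusted p = 0.0647). RASAL3, a RAS GTPase-activating protein of blood cells, had 9.04 and 9.13 on the DZNep arrays, against 8.81 and 8.72 on the DMSO arrays, at 0.32 (limma adjusted p = 0.0709). All 3 were higher on both DZNep arrays than on both DMSO arrays.

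ETV1, the PEA3 relative of ETV4 and ETV5, had 6.41 and 6.52 on the DZNep arrays, against 6.04 and 6.19 on the DMSO arrays in log2 intensity. Its log2 difference of 0.35 (limma adjusted p = 0.0616) has the opposite sign to those of ETV4 and ETV5. The difference between the 3 genes was not tested. ATF3 and EGR1, both immediate early factors, were lower on each DZNep array, at −0.34 (limma adjusted p = 0.0746) and −0.31 (adjusted p = 0.128).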
